A study of Mus musculus with 7 samples.

Results

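The PAR bZIP genes *Dbp*, *Tef* and *Hlf* and the related gene *Nfil3* were examined for occupancy by BMAL1, REV-ERBα and RNA polymerase II (RNAP2) in mouse gastrocnemius, a calf muscle. A peak belonged to a gene when it overlapped the gene body or lay within 10 kb of any annotated transcription start site (TSS) of that gene in GENCODE M21 on GRCm38 (mm10). This rule took 69 of the 527912 peaks in 6 lists, at 4 of 21938 protein-coding genes. By gene, 27 peaks lay at *Dbp*, 21 at *Tef*, 18 at *Hlf* and 3 at *Nfil3*. By factor, 26 were BMAL1 peaks, 15 were REV-ERBα peaks and 28 were RNAP2 peaks.

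DBP, TEF and HLF are the proline and acidic amino acid-rich (PAR) basic leucine zipper activators, which bind D-box elements and carry the daily rhythm of the clock to output genes such as those of detoxification. NFIL3, also called E4BP4, belongs to the same wider class but lacks the PAR domain, and represses transcription from the same D-box elements. In the textbook circuit, BMAL1 with CLOCK activates genes through E-boxes, REV-ERBα represses genes through nuclear receptor response elements, the PAR bZIP genes are counted among the E-box genes and *Nfil3* among the REV-ERB genes.

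The muscles came from wild-type male C57BL/6J mice, 5 months old, kept in a 12:12 light:dark cycle on standard chow. Chromatin was taken at Zeitgeber time (ZT) 4, where ZT0 is lights on, for BMAL1 and RNAP2, and at ZT8 for REV-ERBα, which was precipitated with a mixture of 2 antibodies. Each factor had 2 replicates, and peaks were called in each against input DNA, so a comparison of REV-ERBα with BMAL1 or RNAP2 is also one of ZT8 with ZT4. No muscle without BMAL1 or REV-ERBα was among the samples, so the peaks were not set against tissue that lacks either factor.

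Each peak carries a summit with 3 values from the peak caller, namely the fold enrichment over the local background, the −log10 p and the −log10 q, which is p adjusted over the genome. The lists held between 28881 and 177669 peaks, with a median −log10 p between 1.87 and 3.21. Only 92 and 36 BMAL1 peaks of replicates 1 and 2 reached a −log10 q of 1.3, while REV-ERBα had 324 and 423 such peaks, and RNAP2 had 10997 and 3622. Peaks in both replicates that overlapped by at least 1 bp were therefore joined into regions, of which BMAL1 had 2742, REV-ERBα 1263 and RNAP2 10752. A region was ranked by the lower −log10 p of its replicates. With 2 replicates and no reads per peak, no test between sites was run, and values are given for each replicate. In whole muscle, a site bound in fewer cells and a site bound more weakly cannot be told apart. RNAP2 regions marked 7 of 7 skeletal muscle genes and 2 of 13 genes of other cell types or tissues. The same 7 muscle genes held a BMAL1 region in 6 cases and a REV-ERBα region in 7, while the 13 other genes held one in 0 and 2 cases, 1 of these without an RNAP2 region. In their strongest regions the muscle genes had −log10 p from 2.29 to 8.09 in BMAL1 replicate 1 and from 1.83 to 13.4 in BMAL1 replicate 2. For REV-ERBα they ran from 3.09 to 20.5 in replicate 1 and from 3.59 to 27.5 in replicate 2. These REV-ERBα ranges take in the values at *Dbp* and *Tef* given below. The gene with a REV-ERBα region but no RNAP2 region, a liver gene, had −log10 p of 21.7 and 30.8. Most of these muscle genes thus held peaks of all 3 factors, and the part of this in the peaks below was not tested.

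The occupancy divided the genes into a pair with regions of all 3 factors, *Dbp* and *Tef*, and a pair with none in its window, *Hlf* and *Nfil3*. *Dbp* held 3 BMAL1, 3 REV-ERBα and 4 RNAP2 regions, the last of these RNAP2 regions reaching in only at the window's edge. *Tef* held 1 BMAL1, 1 REV-ERBα and 2 RNAP2 regions. *Hlf* and *Nfil3* held 0 regions of each factor, although a strong BMAL1 region stood 27.2 kb upstream of *Hlf*. The sequences under these sites are shown first.

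The sequences around 4 BMAL1 summits and the promoter of *Nfil3* are printed 5′ to 3′ along the gene, from GRCm38, because they show which sites hold an E-box and which do not. The weaker BMAL1 site past the 3′ end of *Dbp*, with no motif near its summit, is not printed. Capitals mark CACGTG (the E-box) or CACGTT (a variant of it) and TAGGTCA or TGGGTCA (called the REV-ERB site here, a single nuclear receptor core with 1 flanking base), on either strand, so that AACGTG is the variant and TGACCTA the REV-ERB site on the other strand. No match overlapped another. The first is the *Dbp* promoter summit, chr7:45704884-45705094, plus strand. The second is *Dbp* intron 2, chr7:45707654-45707845, plus strand. The *Tef* sequence is chr15:81810928-81811074, plus strand, around the internal start site. The *Hlf* sequence is the distal site, chr11:90418024-90418322, minus strand. The *Nfil3* sequence is chr13:52981044-52981273, minus strand, which ends 30 bases into the transcript.
*Dbp* promoter: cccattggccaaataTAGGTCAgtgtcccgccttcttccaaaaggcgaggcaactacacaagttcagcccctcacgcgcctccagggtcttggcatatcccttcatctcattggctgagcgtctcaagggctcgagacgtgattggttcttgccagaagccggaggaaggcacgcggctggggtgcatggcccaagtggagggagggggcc
*Dbp* intron: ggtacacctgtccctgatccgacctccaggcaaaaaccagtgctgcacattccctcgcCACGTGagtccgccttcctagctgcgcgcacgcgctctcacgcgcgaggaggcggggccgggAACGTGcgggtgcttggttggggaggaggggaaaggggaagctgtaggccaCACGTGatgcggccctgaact
*Tef* internal promoter: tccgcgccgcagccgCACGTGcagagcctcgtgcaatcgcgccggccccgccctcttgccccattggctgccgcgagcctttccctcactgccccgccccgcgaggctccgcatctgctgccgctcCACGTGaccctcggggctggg
*Hlf* distal site: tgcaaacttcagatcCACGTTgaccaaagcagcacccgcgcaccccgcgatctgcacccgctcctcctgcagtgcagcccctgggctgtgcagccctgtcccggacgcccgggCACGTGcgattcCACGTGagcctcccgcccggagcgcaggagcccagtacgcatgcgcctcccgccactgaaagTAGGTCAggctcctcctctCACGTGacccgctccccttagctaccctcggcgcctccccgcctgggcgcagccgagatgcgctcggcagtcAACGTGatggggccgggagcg
*Nfil3* promoter: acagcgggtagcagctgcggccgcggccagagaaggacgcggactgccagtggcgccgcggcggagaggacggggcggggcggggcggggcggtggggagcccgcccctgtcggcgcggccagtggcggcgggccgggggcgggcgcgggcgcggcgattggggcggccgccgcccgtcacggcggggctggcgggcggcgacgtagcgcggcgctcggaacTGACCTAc
The *Hlf* site holds 3 E-boxes, 2 variants and 1 REV-ERB site. The *Dbp* intron holds 2 E-boxes and 1 variant, and the stretch of *Tef* shown holds 2 E-boxes. The *Dbp* promoter and the *Nfil3* promoter hold 1 REV-ERB site each and no E-box.

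Read against all genes, the share of the 4 genes with regions was as follows. A BMAL1 region was found at 2 of 4 genes, where 6.81% of all protein-coding genes had one. For REV-ERBα the count was 2 of 4 against 4.44%, and for RNAP2 it was 2 of 4 against 41.1%. A shared site, which needed a peak in no fewer than 3 of the 4 lists of these transcription factors, was found at 2 of 4 genes against 1.62%. Among peaks with −log10 p of at least 3, *Dbp* and *Tef* still had regions of every factor, and the shares over all genes were 0.356% for BMAL1, 2.47% for REV-ERBα and 29.4% for RNAP2. The RNAP2 count is thus close to the background, while the counts for BMAL1, REV-ERBα and shared sites stood above it. A single peak in 1 list says little. BMAL1 replicate 1 had a peak at 3 of 4 genes against 38.2% of all genes, and replicate 2 at 4 of 4 against 84.4%. REV-ERBα replicate 1 had a peak at 2 of 4 against 38.7%, and replicate 2 at 4 of 4 against 40.1%. RNAP2 replicate 1 had one at 3 of 4 against 76.9%, and replicate 2 at 4 of 4 against 86.5%. The windows differ in size, from 22.8 kb at *Dbp* and 23.9 kb at *Nfil3* to 38.5 kb at *Tef* and 64.4 kb at *Hlf*, with a median of 30.2 kb over all genes. The longest window, that of *Hlf*, was one of those without a region.

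**Figure D1:**
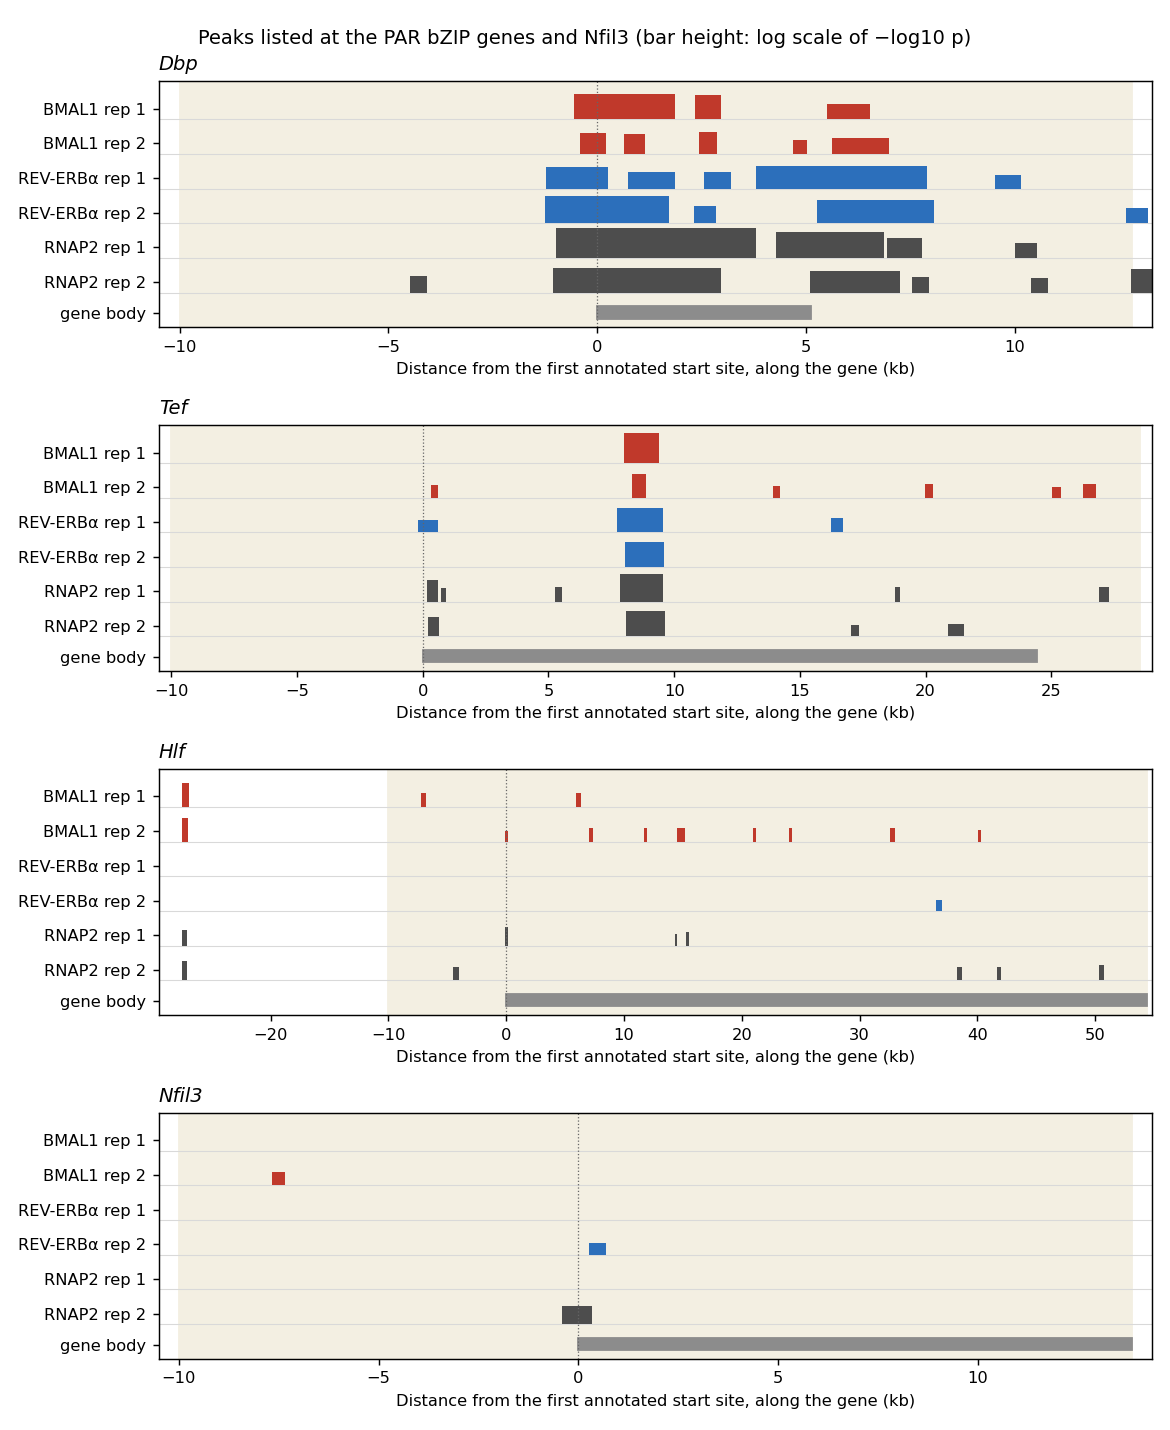
Peaks of the 6 lists at each gene, plotted by distance from the first annotated TSS in kb along the gene, with bar height on a log scale of −log10 p. Shading marks the window, the grey bar the gene body, and outside the shading of the *Hlf* panel only the peaks of the site 27.2 kb upstream are drawn. Peaks of all lists stack at the promoter, the intron and the 3′ side of *Dbp* and 8.6 kb into *Tef*, while those in the *Hlf* and *Nfil3* windows are scattered.

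*Dbp* (ENSMUSG00000059824, chr7:45705088-45710203, plus strand) was the most densely occupied of the 4. DBP was named for its binding to the D site of the albumin promoter. Only 54 genes (0.246%) had as many as 3 BMAL1 regions in their window, 30 (0.137%) as many as 3 REV-ERBα regions, and 19 (0.0866%) as many as 3 shared sites. As many as 4 RNAP2 regions were found at 141 genes (0.643%). The count of 4 at *Dbp* includes a region that reaches its window only at the edge, through its replicate 2 peak. The first BMAL1 region, chr7:45704529-45706945, had its summits 9 and 26 bp upstream of the TSS in replicates 1 and 2. There −log10 p was 15.1 and 8.25, fold enrichment 5.94 and 4.56, and −log10 q 9.35 and 2.58. The region ranked 15 of 2742. In replicate 2 it also took in a second peak in the first intron, with its summit 977 bp downstream of the TSS and −log10 p of 7.11.

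The intronic BMAL1 region, chr7:45707440-45708050, had summits 2581 and 2615 bp downstream of the TSS, in intron 2 of 3 of transcript Dbp-201. Its −log10 p was 14.1 and 9.72 and its fold enrichment 5.22 and 4.82, and it ranked 9 of 2742. The promoter was thus slightly stronger than the intron in replicate 1 and weaker in replicate 2, so the order of these sites was not settled by the replicates. The third BMAL1 region, chr7:45710583-45712087, lay past the 3′ end of *Dbp* with summits 6094 and 6089 bp from its TSS. It was weaker, with −log10 p of 3.54 and 3.60, fold enrichment of 2.67 and 2.88, and −log10 q of 0 in both replicates, and ranked 57. This region lies within *Sphk2*, which encodes a sphingosine kinase and is transcribed from the opposite strand, and the nearest TSS is that of *Sphk2*, 2261 bp away.

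REV-ERBα had a region over each of these BMAL1 regions, but with another order of strength. The upstream region, chr7:45703840-45706963, had −log10 p of 9.78 and 20.2 and fold enrichment of 4.69 and 7.42, and ranked 137 of 1263. The 3′ region, chr7:45708896-45713168, had −log10 p of 10.6 and 11.8, fold enrichment of 4.92 and 5.33, and ranked 126. The intronic region, chr7:45707402-45708304, was the weakest, with −log10 p of 4.21 and 4.67, fold enrichment of 2.77 and 2.99, and −log10 q of 0.0891 and 0.51. In both replicates, therefore, the intron was the lowest of the 3 for REV-ERBα, while for BMAL1 the 3′ region was the lowest.

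The REV-ERBα summits at the *Dbp* promoter did not coincide with those of BMAL1. They lay 901 and 857 bp upstream of the TSS, within the 3′ part of the neighbouring gene *Car11*, and between 831 and 892 bp from the BMAL1 summits. In the intron the summits of the 2 factors were 64 to 158 bp apart, on the 3′ side 0 to 263 bp, and at *Tef* 11 to 114 bp. Over the 110 shared sites with peaks in all 4 lists, the closest pair of summits was a median of 125 bp apart, with quartiles of 41 and 353 bp, and 10 sites (9.09%) were at least as far apart as the *Dbp* promoter.

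RNAP2, the enzyme that transcribes protein-coding genes, covered most of *Dbp*. Peaks took up 90.7% of the gene body in replicate 1 and 58.4% in replicate 2, where the medians over all genes were 0.916% and 2.57%. Only 0.082% and 0.232% of genes had as much or more. *Dbp* is short, at 5.12 kb, so that a promoter peak alone can fill a large part of it. Its main RNAP2 region, chr7:45704032-45708897, had −log10 p of 32.2 and 14.5 and fold enrichment of 12.0 and 7.15, and ranked 431 of 10752. A second region, over the 3′ end and beyond, chr7:45709373-45713038, had −log10 p of 17.2 and 10. The other RNAP2 regions lay at neighbours of *Dbp*. A region with −log10 p of 3.21 and 3.05 lay by a *Sphk2* TSS, and one with 17.7 and 12.4 lay by the TSS of *Rpl18*, which encodes a ribosomal protein. The region by *Rpl18* starts at 45717884 and the window ends at 45717889, so only its edge is in the window. Its replicate 1 peak lies outside. The window of *Dbp* holds 5 TSSs of *Car11*, 2 of *Sphk2* and 1 of *Rpl18*, so its peaks cannot be given to *Dbp* by distance alone.

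*Tef* (ENSMUSG00000022389, chr15:81802421-81826863, plus strand) showed one concentrated site, which was not at its first promoter. TEF was first known as a thyrotroph factor and is now counted among the clock output factors of many tissues. The BMAL1 region, chr15:81810429-81811822, had summits 8624 and 8596 bp downstream of the first TSS, in intron 1 of transcript Tef-202. These positions are 1 and 29 bp upstream of the TSS of transcript Tef-206. Its −log10 p was 30.7 and 12.0, its fold enrichment 7.67 and 5.25, and its −log10 q 24.4 and 5.93, and it ranked 6 of 2742. In replicate 1 it was stronger than any BMAL1 peak at *Dbp*, and in replicate 2 it was again the strongest of the 4 windows, by a smaller margin over the 9.72 of the *Dbp* intron.

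REV-ERBα occupied the same place, chr15:81810164-81812034, with −log10 p of 14.5 and 16.1, fold enrichment of 5.11 and 5.68 and a rank of 104 of 1263. RNAP2 was found at both promoters. At the internal one, chr15:81810251-81812039, −log10 p was 22.5 and 15.5 and fold enrichment 10.3 and 7.44. At the first one, chr15:81802579-81803074, −log10 p was 9.60 and 7.13 and fold enrichment 5.50 and 4.27. The internal promoter was the higher in both replicates, and the values of the promoters did not overlap between them. Within 500 bp of the first TSS, BMAL1 had a peak only in replicate 2, with −log10 p of 2.16, and REV-ERBα only in replicate 1, with 1.88. Both of these had a −log10 q of 0. RNAP2 peaks covered 11.9% of the *Tef* gene body in each replicate.

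**Figure D2:**
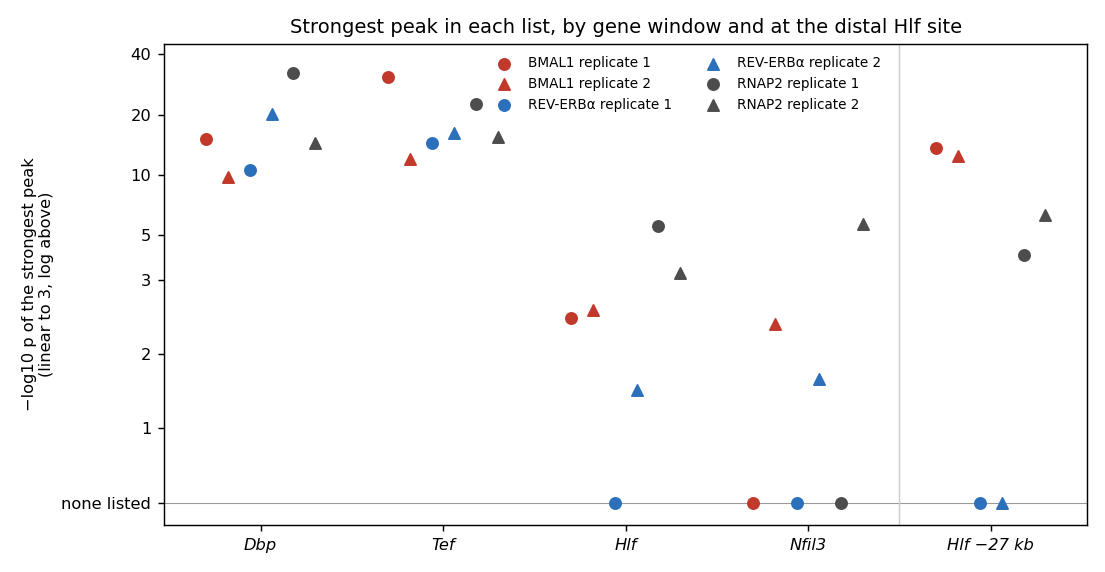
The −log10 p of the strongest peak of each list in each gene window and at the site 27.2 kb upstream of *Hlf*, on an axis that is linear to 3 and logarithmic above. Circles are replicate 1 and triangles replicate 2. All 6 lists lie above 9 at *Dbp* and *Tef*, while BMAL1 and REV-ERBα stay below 3 in the windows of *Hlf* and *Nfil3* and BMAL1 alone exceeds 10 at the distal site.

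*Hlf* (ENSMUSG00000003949, chr11:90336536-90390895, minus strand), known for its fusion with *TCF3* in childhood leukaemia, had scattered weak peaks in its window and a strong one outside it. BMAL1 replicate 1 listed 2 peaks in the window, both with −log10 p of 2.48. Replicate 2 listed 8, from 1.4 to 2.60, and no peak overlapped one of replicate 1. Of these 8, 5 had the value 2.40, which was given to 40763 peaks (22.9%) of that list. REV-ERBα had no peak in replicate 1 and 1 in replicate 2, with −log10 p of 1.52. RNAP2 replicate 1 had a peak at the TSS, chr11:90390763-90391032, with −log10 p of 5.56, −log10 q of 2.34 and fold enrichment of 4.11. RNAP2 replicate 2 had none within 500 bp of the TSS, and its strongest peak in the window, at 3.26, lay 50631 bp downstream of the TSS.

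The region outside the window, chr11:90417792-90418443, had BMAL1 summits 27240 and 27275 bp upstream of the TSS of *Hlf*. Its −log10 p was 13.6 and 12.5, its fold enrichment 5.62 and 6.05, and its −log10 q 7.94 and 6.33. By the lower of its replicates it ranked 5 of 2742, which is above every BMAL1 region in the 4 windows. In replicate 1, however, it was below *Tef* at 30.7 and the *Dbp* promoter and intron at 15.1 and 14.1. In replicate 2 it was just above *Tef* at 12.0, so this order was not settled by the replicates. The replicates of the *Hlf* site were closer to each other than those of *Tef* or of the *Dbp* promoter. RNAP2 had a peak there in both replicates, with −log10 p of 3.97 and 6.35 and fold enrichment of 3.33 and 4.30. REV-ERBα had none in either replicate, and its nearest peaks lay 24.1 kb away in replicate 1 and 47.9 kb away in replicate 2. The nearest annotated TSS of any kind is that of *Hlf*, and no other link between this region and the gene was measured. It lies beyond the window rule and is given here as the nearest region outside it.

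*Nfil3* (ENSMUSG00000056749, chr13:52967209-52981073, minus strand), a repressor also needed for natural killer cell development, had the fewest peaks, 3 in all and each of them in replicate 2. The BMAL1 peak lay 7488 bp upstream of the TSS with −log10 p of 2.40. The REV-ERBα peak lay 325 bp downstream of the TSS with −log10 p of 1.66, fold enrichment of 1.79 and −log10 q of 0. The RNAP2 peak, chr13:52980734-52981471, was the strongest, with −log10 p of 5.71, −log10 q of 2.07 and fold enrichment of 3.91. Outside the window the nearest region in both replicates was 424 kb from the TSS for BMAL1, 758 kb for REV-ERBα and 51.2 kb for RNAP2. Unlike *Hlf*, *Nfil3* thus had no near region of BMAL1 in both replicates. Absence from a list says only that no peak was called at the depth of these libraries.

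Outside the other windows, distances were taken from the nearest TSS of the gene to the near edge of the region. The nearest further BMAL1 region was 933 kb from *Dbp*, with −log10 p of 1.48 and 2.98. From *Tef* it was 96.4 kb away, with 2.15 and 1.51. For REV-ERBα it was 136 kb from *Dbp* and 17.5 kb from *Tef*, where −log10 p was 3.17 and 3.68. For RNAP2 it was 64.4 kb from *Dbp* and 14.4 kb from *Tef*, where −log10 p was 12.2 and 5.16.

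**Figure D3:**
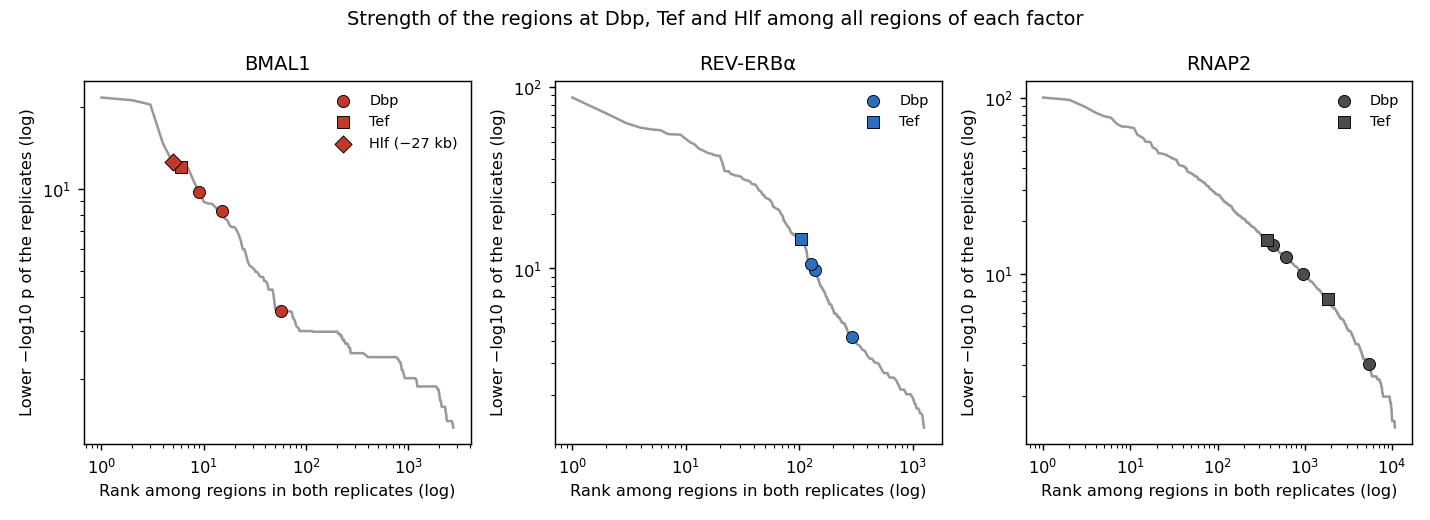
The lower −log10 p of the replicates against rank, for all regions of each factor in both replicates, on log axes. The regions in the windows of *Dbp* and *Tef* are marked, and the distal site of *Hlf* is marked for BMAL1 only. Its RNAP2 region, at rank 3797, is not marked. The marked regions stand at ranks 5 to 57 of 2742 for BMAL1, at 104 to 294 of 1263 for REV-ERBα and at 369 to 5408 of 10752 for RNAP2.

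The rank of the sites differed between the factors. Among the 10 strongest BMAL1 regions, 3 had *Dbp*, *Tef* or *Hlf* as the gene with the nearest TSS, and among the 15 strongest, 4 did. These were the *Hlf* distal site at rank 5, *Tef* at 6, the *Dbp* intron at 9 and the *Dbp* promoter at 15. For REV-ERBα the highest rank of any of the sites was 104 of 1263, at *Tef*, and for RNAP2 it was 369 of 10752, again at *Tef*. All 4 BMAL1 regions in the windows overlapped a REV-ERBα and an RNAP2 region, whereas the *Hlf* distal region overlapped an RNAP2 region only.

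E-boxes were found at the intron of *Dbp*, at *Tef* and at the *Hlf* distal site. Within 100 bp of the stronger BMAL1 summit, CACGTG was present at 2 of the 4 regions in the windows, against 70 of 2742 (2.55%) of all BMAL1 regions. The share was 60% among the 10 strongest regions, 45% among the top 20 and 18% among the top 100, so that strong regions held the motif more often and the 4 regions are to be read against those. At *Tef* the E-boxes were centred 99.5 bp upstream and 11.5 and 233.5 bp downstream of the summit. In the *Dbp* intron they were centred 45.5 and 158.5 bp downstream of the summit, with the variant CACGTT between them at 107.5 bp. At the *Hlf* site they were centred 71.5 and 59.5 bp upstream and 21.5 bp downstream, and a REV-ERB site was centred 3 bp from the summit although neither REV-ERBα list had a peak there. Only 2 BMAL1 regions (0.0729%), the *Hlf* site among them, held 3 or more E-boxes within 100 bp of the summit, and 7 (0.255%) held 2 or more.

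The *Hlf* E-boxes upstream of the summit are separated by 6 bases, as can be read in the sequence printed above. Such pairs, with 6 or 7 bases between E-boxes of CACGTG or CACGTT, were found near the summit at 2 of 2742 BMAL1 regions (0.0729%), the other lying near *Gm42791*, which was named after its values were seen. At the *Dbp* promoter, CACGTG was absent from the whole region. That region held REV-ERB sites 222 and 177 bp upstream of the BMAL1 summit and 781 bp downstream of it, and the upstream ones were 626 and 671 bp from the stronger REV-ERBα summit. In the 3′ region of *Dbp* the E-box was 306.5 bp from the BMAL1 summit.

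The REV-ERB site was found within 100 bp of the stronger REV-ERBα summit at 0 of 4 regions, against 4.51% of all 1263 REV-ERBα regions, and CACGTG at 1 of 4 against 3.40%. The D-box to which DBP, TEF, HLF and NFIL3 themselves bind, searched as TTATGTAA or TTACGTAA on both strands, was absent within 100 bp of the summits at the BMAL1 and REV-ERBα regions, where 1.6% and 1.82% of all regions held it. In the RefSeq promoter table for GRCm38.p6, with 250 bases before and 50 after each start, the 4 genes had 5 of the 32851 promoters. An E-box was in both *Tef* promoters and in none of the other 3, against 7.15% of all promoters. A REV-ERB site was in the *Nfil3* promoter only, against 6.45%, and a D-box in none, against 1.06%. The table's *Dbp* promoter, chr7:45704997-45705296, begins downstream of the REV-ERB site in the *Dbp* sequence printed above and so does not include it. A match of letters does not show that a factor is bound there.

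**Figure D4:**
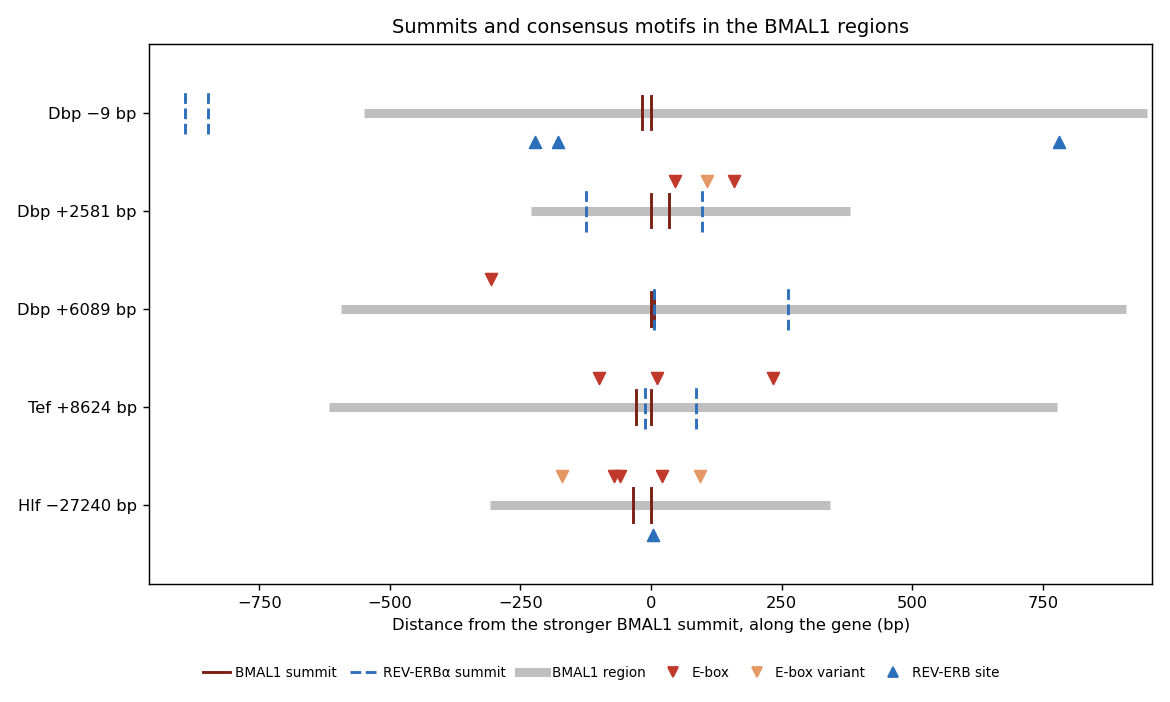
BMAL1 and REV-ERBα summits of both replicates and consensus motifs around the stronger BMAL1 summit, in bp along the gene, for the 4 BMAL1 regions in the windows and the *Hlf* distal region, each named by its distance from the first TSS. The grey bar of the *Dbp* promoter region is clipped at the right edge. E-boxes lie within 100 bp of the summit at the *Dbp* intron, *Tef* and *Hlf*, and the REV-ERBα summits stand far from the BMAL1 summits at the *Dbp* promoter.

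For comparison, the same windows were read at 16 clock regulators. BMAL1 had a region in both replicates at 11 of them, REV-ERBα at 8 and RNAP2 at 13. Both factors were found at 8 genes, *Per1*, *Per2*, *Per3*, *Nr1d1*, *Nr1d2*, *Bhlhe40*, *Bhlhe41* and *Ciart*, as at *Dbp* and *Tef*. The *Per* genes encode repressors of BMAL1 and CLOCK, *Nr1d1* and *Nr1d2* encode REV-ERBα and REV-ERBβ, and *Ciart* encodes the repressor CHRONO. The genes with a region of neither factor, as at *Hlf* and *Nfil3*, included *Arntl*, which encodes BMAL1 itself, and *Npas2*, which encodes a partner of BMAL1. The paper, however, detected REV-ERBα at the *Arntl* (*Bmal1*) promoter by ChIP-qPCR in gastrocnemius at ZT8. The lack of a region in these lists therefore does not show that REV-ERBα is absent from a gene. Each gene with both factors was read at its strongest region, that with the highest lower −log10 p of the replicates. For BMAL1 the values by replicate were 36.5 and 21.2 at *Per1*, 20.5 and 5.68 at *Per2* and 16.6 and 7.3 at *Per3*. They were 20.4 and 31.6 at *Nr1d1*, 28.1 and 8.80 at *Nr1d2* and 24 and 21.7 at *Ciart*. *Bhlhe40* had 11 and 3.36 and *Bhlhe41* 7.11 and 5.22, beside 30.7 and 12.0 at *Tef* and 14.1 and 9.72 at *Dbp*. For REV-ERBα the values were 5.41 and 7.69 at *Per1*, 7.49 and 16.3 at *Per2* and 3.48 and 3.84 at *Per3*. At *Nr1d1* they were 6.24 and 5.39, at *Nr1d2* 10.8 and 7.01 and at *Ciart* 9.55 and 15.9. *Bhlhe40* had 7.09 and 7.31 and *Bhlhe41* 5.84 and 5.65, beside 14.5 and 16.1 at *Tef* and 10.6 and 11.8 at *Dbp*. The *Dbp* values come from different sites, the intron for BMAL1 and the 3′ region, with summits within *Sphk2*, for REV-ERBα. In the intron REV-ERBα had 4.21 and 4.67.

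Genes downstream of the PAR bZIP factors were read in the same windows. Of 13 genes known as their targets, 4 had a BMAL1 region and 3 a REV-ERBα region, all of them *Per* or *Cry* genes that are also clock regulators. Among the 9 others, which were *Acot1* to *Acot4*, *Por*, *Alas1*, *Pdxk*, *Nr1i3* and *Cyp2a5*, 0 had a BMAL1 or REV-ERBα region and 3 had an RNAP2 region, which with so few genes is near the shares over all genes of 6.81%, 4.44% and 41.1%. RNAP2 had −log10 p of 20.6 and 8.84 at *Alas1*, the rate-limiting enzyme of haem synthesis, of 10.2 and 7.99 at *Por*, the electron donor of cytochromes P450, and of 2.29 and 5.51 at *Acot2*, an acyl-CoA thioesterase. The C/EBP factors, which are bZIP proteins that can bind the same kind of element, had 0 of 5 genes with a BMAL1 or REV-ERBα region and 3 of 5 with an RNAP2 region, again near those shares.

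The genes most like each of the 4 were found by the Euclidean distance of log10(−log10 p + 1) of the strongest peak over the 6 lists, among protein-coding genes with a peak in the same lists. For *Tef* these were *Ciart* at 0.31 and *Car11* and *Dbp* at 0.38. For *Dbp* they were *Car11*, *Rpl18* and *Sphk2* at 0, which share the peaks of its window. Without genes that share its window, a choice made after seeing this, they were *Tef* at 0.38, *Mib1* at 0.40 and *Ciart* at 0.43. For *Hlf* they were *Serinc1* and *St3gal2* at 0.07 and *Tti1* at 0.08 out of 1275 such genes. Unlike *Hlf*, *St3gal2* and *Tti1* held an RNAP2 region in both replicates. For *Nfil3* they were *Samd13* at 0.12 and *Olfr54* and *Olfr822* at 0.15 out of 289, the latter being olfactory receptor genes. The likeness of *Hlf* and *Nfil3* thus rests on weak peaks of the kind found in many windows.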

How the data were processed

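The data are 6 lists of ChIP-seq peaks from gastrocnemius of wild-type male mice, 2 replicates each for BMAL1 and RNAP2 at ZT4 and REV-ERBα at ZT8. The authors aligned reads to mm10 with BWA 7.12, dropped duplicates and reads that map to several places, sampled the replicates of a factor down to about the same number of reads and called peaks in each sample against input with MACS2 2.1.1 at a p cutoff of 0.05. The deposited fold enrichment, a ratio of signal to local background, and the deposited −log10 p and −log10 q are those at the summit. The deposited score was not used. Reads and input were not analysed here, so the number of reads behind a single peak is unknown and no counting interval is given. The paper reports fewer reads per library for RNAP2 than for BMAL1 and REV-ERBα after the sampling. The study calls the replicates biological, and the labels do not tie them to animals.

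Peaks overlapping by at least 1 bp were joined, and a region counted when both replicates had a peak in it. Genes came from GENCODE M21 (GRCm38). Both strands were searched for motifs up to 100 bp from the summit of the replicate with the higher −log10 p. Python 3.11.15, pandas 2.3.3, numpy 2.4.6, pysam 0.24.0 and matplotlib 3.10.9 were used, and the code was tested on simulated peaks. Genes named are the 4 genes, the nearest other genes of their regions, 3 fixed lists (clock regulators, PAR bZIP targets and C/EBP relatives) of which those with regions of both factors or of neither may carry values, and the 3 genes most like each. The genes and lists were chosen with earlier results of these data known. Alternatives were other thresholds, windows and overlaps and leaving out a replicate.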

Additional observations from a re-analysis of the deposited data

How the results depend on the processing

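Over 60 alternatives of the counts at the 4 genes, 50 stayed within 1.5 times the main count. *Dbp* and *Tef* kept regions of every factor at −log10 p of at least 3 and at −log10 q of at least 1.3. Shared sites fell from 4 to 2 at −log10 q of at least 1.3, and with a window of 50 kb RNAP2 regions rose from 6 to 11. Leaving out 1 replicate leaves 1 list, whose every peak then counts. BMAL1 regions then ranged from 6 to 20, the higher value without replicate 1, REV-ERBα regions from 7 to 8 and RNAP2 regions from 13 to 15. The number of the 4 genes with a region then ranged from 3 to 4 for BMAL1, from 2 to 4 for REV-ERBα and from 3 to 4 for RNAP2, with 4 reached in each case without replicate 1. Shared sites stayed at 4 without any single replicate, but each of these sites had peaks in all 4 lists and the rule needed 3. These counts, which are among the 50, therefore say nothing about how stable the sites are. Regions with an E-box near the summit ranged from 2 to 3. No paired analysis was possible because the results are counts of listed peaks and come from no test. Peaks with low −log10 p share few values and many lie at each, so their order carries little information.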
